A study of Mus musculus with 4 samples.

Results

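Histone lysine methyltransferases and demethylases were examined in poly(A)-selected RNA from mouse hippocampus and from HT22 cells, an immortalised mouse hippocampal neuronal line. The 41 genes were chosen by name as writers, Polycomb core subunits and erasers of histone lysine methylation, out of 22328 genes in each deposited table. They were 24 methyltransferases, 2 core subunits of Polycomb repressive complex 2 (PRC2) and 15 demethylases. F1m-GCS offspring came from dams on a diet with 5 g/kg choline chloride between embryonic day 9 and birth, and F1m-CON offspring from dams on 1.1 g/kg. Both kinds of offspring ate a basal diet after birth, and the labels give 2 months as the age at behaviour testing. HT22 SUP cultures received 70 µM choline chloride and HT22 CON cultures 5 µM, each for 48 h. The labels used here do not say how many animals went into a hippocampus library. There was 1 library per group, so no difference has a replicate check and no p-value is given.

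Methyltransferases move methyl groups from S-adenosylmethionine onto lysines of the histone tails, and choline, once oxidised to betaine, is one source of those methyl groups. Methylation of histone H3 at lysine 4 (H3K4) and lysine 36 (H3K36) marks active promoters, enhancers and transcribed gene bodies. Methylation at lysine 9 (H3K9) marks heterochromatin, and at lysine 27 (H3K27) genes silenced by Polycomb. Demethylases of the flavin-dependent Kdm1 family and the Jumonji family remove these marks. Several of the enzymes are known for their part in neuronal development and in memory in the hippocampus.

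The libraries held 30265820 reads in genes for F1m-GCS, 31175015 for F1m-CON, 13192007 for HT22 SUP and 18305096 for HT22 CON. These were 79% of the uniquely mapped reads in F1m-GCS, 79.4% in F1m-CON, 63.1% in HT22 SUP and 72.9% in HT22 CON. All 41 genes had at least 50 reads in 1 library of every pair compared, the minimum for a gene to count as measured. Neuron markers summed to 258 CPM, counts per 1e6 reads in genes, in HT22 SUP and 133 in HT22 CON, against 11738 in F1m-GCS and 11809 in F1m-CON. Markers of dividing cells summed to 4340 CPM in HT22 SUP and 3794 in HT22 CON, against 43.4 in F1m-GCS and 43.2 in F1m-CON. HT22 is labelled a hippocampal neuron cell, and its neuron markers were far below those of the tissue. A level in tissue depends on both the number of cells of a type and the RNA per cell, which cannot be told apart in bulk samples.

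Promoters of 4 genes are shown because these genes had the log2 ratios that the results turn on. Ezh2 and Ezh1, alternative H3K27 methyltransferases of PRC2, stood on opposite sides of the comparison of cell line with tissue. Setdb1 was higher in the cell line and lower in SUP, and Kmt2d had the highest ratio in SUP. The sequences run 5′ to 3′ on the minus strand of GRCm38.p6, from RefSeq, with 250 bases before and 50 after the start site. Ezh2 spans chr6:47594981-47595280, Ezh1 chr11:101226414-101226713, Setdb1 chr3:95357153-95357452 and Kmt2d chr15:98871156-98871455. Capitals mark matches to 4 motifs on either strand.
Ezh2: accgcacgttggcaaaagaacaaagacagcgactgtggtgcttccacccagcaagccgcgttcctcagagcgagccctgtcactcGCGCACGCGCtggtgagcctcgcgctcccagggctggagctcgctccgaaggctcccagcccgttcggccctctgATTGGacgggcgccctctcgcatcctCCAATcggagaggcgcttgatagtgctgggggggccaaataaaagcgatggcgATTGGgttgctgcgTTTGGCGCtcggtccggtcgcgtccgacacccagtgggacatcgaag
Ezh1: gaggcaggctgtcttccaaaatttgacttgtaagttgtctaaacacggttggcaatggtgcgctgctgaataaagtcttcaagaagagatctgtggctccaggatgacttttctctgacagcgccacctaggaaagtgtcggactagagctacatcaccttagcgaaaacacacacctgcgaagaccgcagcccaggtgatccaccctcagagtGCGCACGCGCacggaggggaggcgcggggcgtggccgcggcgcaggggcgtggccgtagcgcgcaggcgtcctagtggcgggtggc
Setdb1: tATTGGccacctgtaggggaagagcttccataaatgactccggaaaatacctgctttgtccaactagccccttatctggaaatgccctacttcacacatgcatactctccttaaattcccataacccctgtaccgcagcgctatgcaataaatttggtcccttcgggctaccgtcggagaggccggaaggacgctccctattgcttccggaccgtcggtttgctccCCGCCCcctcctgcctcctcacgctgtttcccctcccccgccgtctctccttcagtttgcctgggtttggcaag
Kmt2d: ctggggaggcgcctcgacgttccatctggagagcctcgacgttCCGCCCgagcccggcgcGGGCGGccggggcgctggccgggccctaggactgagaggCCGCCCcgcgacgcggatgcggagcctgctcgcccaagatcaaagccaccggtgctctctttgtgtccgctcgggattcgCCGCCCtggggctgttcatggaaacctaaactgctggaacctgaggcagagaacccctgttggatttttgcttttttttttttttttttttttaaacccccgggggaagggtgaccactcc

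The motifs searched were those of E2F (TTTGGCGC, TTTCCCGC or TTTCGCGC), NF-Y (CCAAT), SP1 (GGGCGG) and NRF1 (GCGC, any base, then TGCGC). The number of overlaps between matches in the 4 promoters was 0. The Ezh2 promoter held an E2F match at position 4, counted from 1 at the start site, with NF-Y matches at -90, -64 and -11 and an NRF1 match at -165. The Ezh1 promoter held an NRF1 match at -36 and none of the other motifs. The Setdb1 promoter held an NF-Y match at -249 and an SP1 match at -24. The Kmt2d promoter held SP1 matches at -207, -190, -151 and -71. Promoters on chromosome 18, which holds Kdm3b, were left out for the 41 genes and for the genes set beside them. Of the 41 genes, 30 had a promoter in the rest of the RefSeq table, and 1 promoter per gene was taken, the one nearest the deposited gene start. That promoter's start site lay 27570 bases from the deposited start for Setd5, 25981 for Kdm2b, 719 for Setd1a and 311 for Ezh2, and at most 207 for the others. E2F matches were present in 2 of them, Ezh2 and Suz12, or 6.67%, against 3.45% of 10357 other genes with at least 50 reads in 1 library and 1.84% of all 32851 promoters. NRF1 matches were present in 6 of 30, or 20%, against 9.95% and 4.60%. NF-Y matches were present in 12 and SP1 matches in 19, or 40% and 63.3%, against 38.8% and 64.7% of the other genes and 37.4% and 35.7% of all promoters. The median number of CpG dinucleotides was 26.5 in these promoters and 21 in those of the other genes. A match is a description of the letters and not a binding site.

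In the hippocampus, the writers of H3K4 and H3K36 methylation and the PRC2 core subunits all had ratios above 0 in F1m-GCS, 4 of these 11 genes by at least 1.2-fold, while writers of H3K9 methylation lay around 0. The differences were small, and the highest of the 41 was 1.35-fold. The median log2 ratio of F1m-GCS over F1m-CON was 0.06 over the 41 genes and -0.0042 over all 13392 measured genes. Ratios were above 0 for 29 of 41 genes, against 48.8% of measured genes. A gene was called at a fold of at least 1.2 with a 95% counting interval that excluded 0. By this rule 5 genes were called higher, 12.2% of the 41, against 8.51% of measured genes, and 0 lower, against 4.47%. Scaling by total counts gave 3 higher, without Kmt2c and Kmt2d, and 1, Setd2, had its whole interval beyond the fold. At 1.5-fold 0 were higher and 0 lower, against 1.8% and 0.904% of measured genes. With the interval alone, at any size, 15 were higher and 2 lower, against 20.9% and 18.8%. Such counts depend on read depth, since intervals narrow as reads increase, and depth was not matched. The authors' deposited table, made from the same single libraries, lists 13 of the 41 at a false discovery rate below 0.05. The share over all its 22328 genes was 14.2%, and 13392 of those genes were measured here. All 41 genes were measured, so this share is not a like base for them. The share among measured genes was not computed.

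Setd2, which trimethylates H3K36 along transcribed genes, had 2940 reads in F1m-GCS and 2261 in F1m-CON, a log2 ratio of 0.43 (0.35 to 0.51). Values in brackets are 95% counting intervals, which cover counting error only. With equal expression, the F1m-GCS count would be 0.963 of the F1m-CON count because of library size. Setd2 stood at percentile 96.2 of measured genes. The other H3K36 writers also lay above 0. Nsd1, a dimethyltransferase mutated in Sotos syndrome in humans, had 6090 reads in F1m-GCS and 5176 in F1m-CON, at 0.29 (0.24 to 0.34). Ash1l, the homologue of a fly Trithorax group protein, had 5938 in F1m-GCS and 5268 in F1m-CON, at 0.23 (0.17 to 0.28). Nsd1 was among the 5 genes called higher and Ash1l lay below the fold.

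Of the 6 H3K4 writers all had ratios above 0, with a median of 0.22. Kmt2d and Kmt2c, which act at enhancers, were called. Kmt2d had 5138 reads in F1m-GCS and 4427 in F1m-CON, at 0.27 (0.21 to 0.33). Kmt2c had 3829 reads in F1m-GCS and 3311 in F1m-CON, at 0.26 (0.20 to 0.33). Both lay just inside the 1.2-fold threshold, which is 0.263 on the log2 scale, and Kmt2a lay outside it at 1.17-fold. Kmt2a, the mouse MLL gene, had 6720 reads in F1m-GCS and 5943 in F1m-CON, at 0.23 (0.18 to 0.28). Setd1b had 1487 reads in F1m-GCS and 1333 in F1m-CON, at 0.21 (0.10 to 0.32). Kmt2b had 0.11 (0.04 to 0.19), and Setd1a 0.02 (-0.12 to 0.16). Setd1a and Setd1b belong to the complexes that place most H3K4 trimethylation at promoters. Kmt2e, a relative whose catalytic activity is disputed, was called higher, with 4103 reads in F1m-GCS and 3515 in F1m-CON, at 0.28 (0.21 to 0.34). Its exons share 9.31% of their bases with Srpk2 on the opposite strand, and the library kit did not mark strand. Larger overlaps were with genes that are not in the count tables, at 51.8% of Setd1a with Gm49388 on the same strand, and on the opposite strand at 30% of Smyd2 with Gm37422, 24.6% of Kdm3b with Gm26538 and 14.6% of Suv39h1 with Gm14820.

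The PRC2 core subunits both had intervals above 0, and the intervals of their catalytic partners held 0. Eed, which binds trimethylated H3K27, had 520 reads in F1m-GCS and 456 in F1m-CON, at 0.24 (0.06 to 0.43). Suz12, the scaffold of the complex, had 1517 in F1m-GCS and 1345 in F1m-CON, at 0.23 (0.12 to 0.33). Neither gene reached the fold. Ezh1, the form typical of non-dividing cells, had 3096 in F1m-GCS and 3372 in F1m-CON, at -0.07 (-0.14 to 0.0018). Ezh2, the form typical of dividing cells, had 240 reads in F1m-GCS and 231 in F1m-CON, at 0.11 (-0.16 to 0.38), an interval too wide for a direction. Eed exons share 6.82% of their bases with E230029C05Rik on the opposite strand.

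Writers of H3K9 methylation had a median of -0.02, and the intervals of all 6 held 0. Ehmt2 (G9a), a dimethyltransferase of euchromatin, had 7088 reads in F1m-GCS and 7458 in F1m-CON, at -0.02 (-0.07 to 0.03). Its partner Ehmt1 had 0.06, Setdb1 -0.01, Setdb2 0.07, Suv39h1 -0.11 and Suv39h2 -0.06. Suv39h1 and Suv39h2 methylate pericentromeric heterochromatin. Dot1l, the H3K79 methyltransferase, had 3752 in F1m-GCS and 3769 in F1m-CON, at 0.05 (-0.02 to 0.11). Setd7, which methylates H3K4 and other proteins, had 8209 in F1m-GCS and 7830 in F1m-CON, at 0.12 (0.08 to 0.17). Setd5 and the Smyd genes lay between -0.09 and 0.04 with intervals that held 0.

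None of the 15 demethylases reached 1.2-fold in the hippocampus, and their median was 0.05. Kdm4b, which acts on H3K9 and H3K36, and Kdm1a (LSD1), which acts on H3K4, were the pair with intervals below 0. Kdm4b had 2751 reads in F1m-GCS and 3092 in F1m-CON, at -0.11 (-0.19 to -0.04). Kdm1a had 2292 in F1m-GCS and 2551 in F1m-CON, at -0.10 (-0.18 to -0.02). Another 3 had intervals above 0, each of a different substrate class. Kdm5a, an H3K4 demethylase, had 1816 reads in F1m-GCS and 1628 in F1m-CON, at 0.21 (0.11 to 0.31). Kdm6b, an H3K27 demethylase, had 1430 in F1m-GCS and 1291 in F1m-CON, at 0.20 (0.09 to 0.31). Kdm3a, an H3K9 demethylase, had 1449 in F1m-GCS and 1318 in F1m-CON, at 0.19 (0.08 to 0.30). The other 10 lay between -0.04 and 0.11, among them Kdm5b with 2778 reads in F1m-GCS and 2858 in F1m-CON, Kdm3b with 2288 in F1m-GCS and 2414 in F1m-CON, and Kdm2a with 3588 in F1m-GCS and 3593 in F1m-CON.

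**Figure D1:**
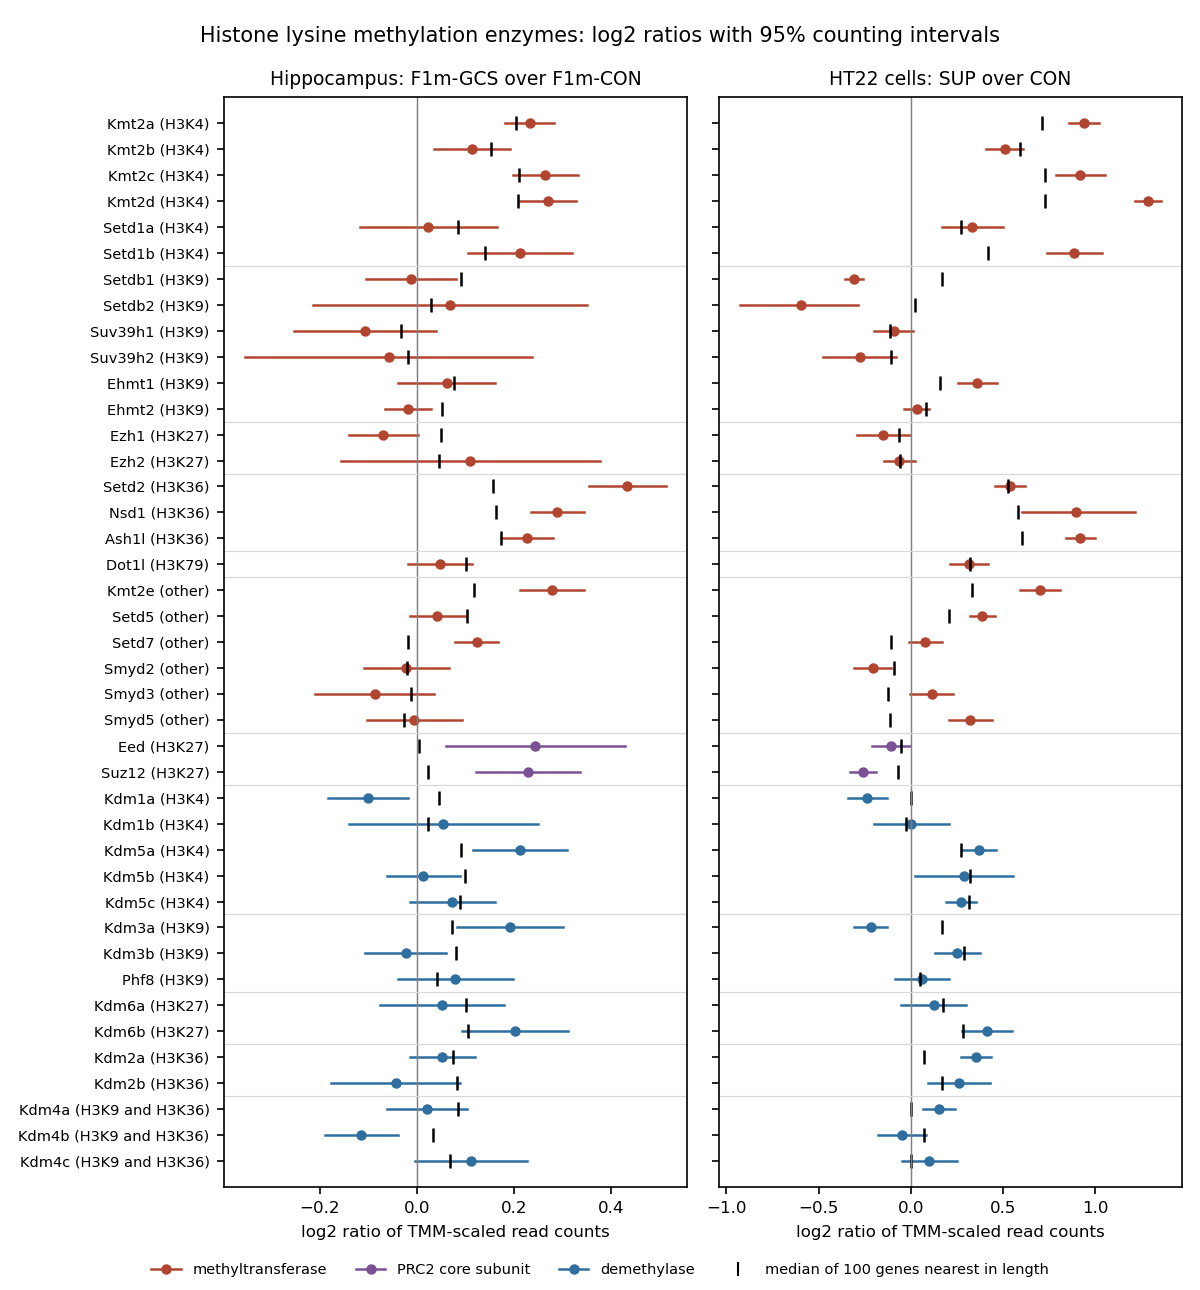
Log2 ratios of TMM-scaled read counts (x axis) for the 41 genes (y axis), F1m-GCS over F1m-CON in hippocampus on the left and SUP over CON in HT22 cells on the right, on separate scales. Points are single-library ratios, bars are 95% counting intervals and black ticks are medians of the 100 genes nearest in coding length; Setd2 is highest in hippocampus at 0.43 and Kmt2d in HT22 at 1.29.

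Coding length ran with these ratios. In hippocampus the median ratio of measured genes was -0.09 in the shortest of 10 equal length groups and 0.11 in the longest, and 23 of the 41 genes were in the longest. Those 23 had a median of 0.11. The H3K4 and H3K36 writers, all among them, have 5151 to 16767 bases, and the H3K9 writers 1242 to 3927. Across the 41 genes the rank correlation of the ratio with coding length was 0.53, against 0.35 across the 13351 other genes, all from the same pair of libraries. Each gene was therefore compared with the median of the 100 measured genes nearest to it in coding length. The median difference from these neighbours was -0.0020, and 20 of 41 genes lay above them. At 1.2-fold, 1 gene stood higher than its neighbours, Setd2, against 7.71% of measured genes, and 0 stood lower, against 3.73%. Setd2 exceeded them by 0.28 (0.20 to 0.36) on the log2 scale, and 17 of the 100 had a higher ratio. Neighbours matched on GC content as well were the 100 nearest in GC of the 500 nearest in length. With them the Setd2 difference was 0.15 (0.07 to 0.23), and 0 of the 41 genes were higher, against 5.44% of measured genes, and 0 lower, against 3.42%. Eed exceeded its length neighbours by 0.24 (0.06 to 0.42) and Suz12 by 0.20 (0.10 to 0.31). With GC matched too, these differences were 0.26 (0.08 to 0.44) for Eed and 0.05 (-0.06 to 0.15) for Suz12. Among the H3K4 writers the differences from length neighbours lay between -0.06 and 0.07. With GC matched too, Kmt2d had 0.21 (0.15 to 0.27), Setd1b 0.16 (0.05 to 0.26) and Kmt2a 0.14 (0.09 to 0.19). The intervals of Kmt2b, Kmt2c and Setd1a then held 0. GC matching is a looser length match for the longest genes, and Kmt2d exceeded its 20 nearest in length by 0.02.

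Markers of the choroid plexus were lower in the same F1m-GCS library, with a summed level of 1613 CPM in F1m-GCS and 1892 CPM in F1m-CON. Of its 8 measured markers 6 were called lower and 0 higher, with a median log2 ratio of -0.49, and no marker was at 0 in either library. Its part in the ratios of the 41 genes was not tested. Neuron markers had a median of -0.02 with 0 of 13 called.

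In HT22 cells, the writers of H3K4 and H3K36 methylation were all higher in SUP, 6 of 9 by at least 1.5-fold. Of 6 writers of H3K9 methylation 3 were lower. Coding lengths are 5151 to 16767 bases for the H3K4 and H3K36 writers and 1242 to 3927 for the H3K9 writers. Target lysine thus runs together with coding length. The median log2 ratio of SUP over CON was 0.25 over the 41 genes and -0.05 over all 10854 measured genes. Ratios lay above 0 for 29 of 41 genes, against 41.9% of measured genes. At 1.2-fold 19 genes were called higher, 46.3% of the 41, against 12.8% of measured genes. Called lower were 3, or 7.32%, against 17.6%. At 1.5-fold 7 were higher, against 5.13%, and 1 was lower, against 2.89%. With the interval alone, 22 were higher and 9 lower, against 22.4% and 32.7%, again without matching for read depth. The median differed between roles, at 0.33 for the methyltransferases and 0.15 for the demethylases. With equal expression an HT22 SUP count would be 0.715 of the HT22 CON count.

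The authors' deposited table lists 18 of the 41 in HT22 at a false discovery rate below 0.05, against 9.55% of all its 22328 genes. Of those 22328 genes 10854 were measured here, against all of the 41, so this share too is not a like base. Of the 18 genes, 17 were among the 22 called here. The exception was Suz12, and Setd1a, Setdb2, Suv39h2, Nsd1 and Kdm5b were called here and not in the authors' deposited table. Its HT22 log2 fold changes differ from the SUP over CON ratios of the counts, and the reason was not tested. In the authors' deposited table Kmt2d has 0.59, Kmt2a 0.45, Setdb1 -0.16 and Kdm5b 0.08, against count ratios of 1.29, 0.94, -0.31 and 0.29.

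Kmt2d had 4638 reads in SUP and 2661 in CON, a log2 ratio of 1.29 (1.22 to 1.36), or 2.44-fold. It stood at percentile 98.8 of measured genes. Kmt2a had 2905 reads in SUP and 2122 in CON, at 0.94 (0.86 to 1.02), and Kmt2c 1097 in SUP and 811 in CON, at 0.92 (0.79 to 1.05). Setd1b had 866 in SUP and 656 in CON, at 0.88 (0.74 to 1.03). All 6 H3K4 writers were called higher. The remaining ones were smaller, Kmt2b with 1614 reads in SUP and 1587 in CON at 0.51 (0.41 to 0.61), and Setd1a with 579 in SUP and 643 in CON at 0.33 (0.17 to 0.50). Together the 6 genes took 887 CPM in SUP and 463 CPM in CON. The group median was 0.90, and 0.21 as a difference from genes of similar coding length, with 5 of 6 above them.

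The H3K36 writers likewise had a median of 0.90, and 0.32 as a difference from genes of similar coding length, with 3 of 3 above them. Ash1l had 3253 reads in SUP and 2406 in CON, at 0.92 (0.84 to 1.00), and Nsd1 209 in SUP and 156 in CON, at 0.90 (0.60 to 1.21). Setd2, the highest gene in hippocampus, had 2450 in SUP and 2360 in CON, at 0.54 (0.46 to 0.62). Kmt2e had 1527 in SUP and 1314 in CON, at 0.70 (0.59 to 0.81). Of other writers called at 1.2-fold, Setd5 had 0.39, Ehmt1 0.36, Smyd5 0.32 and Dot1l 0.31. Dot1l had 1452 reads in SUP and 1635 in CON. Setd7 at 0.08 and Smyd3 at 0.11 had intervals that held 0. Smyd2, whose targets include the tumour suppressor p53, had 1267 in SUP and 2046 in CON, at -0.21 (-0.31 to -0.11), short of the fold.

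The 3 genes called lower with TMM scaling were all H3K9 writers. Setdb1, which silences endogenous retroviruses with Trim28, had 5339 reads in SUP and 9239 in CON, at -0.31 (-0.36 to -0.26). Setdb2 had 121 in SUP and 257 in CON, at -0.60 (-0.93 to -0.29), and Suv39h2 333 in SUP and 564 in CON, at -0.27 (-0.48 to -0.08). The family did not share 1 direction, since Ehmt1 was called higher and Ehmt2 had 3128 reads in SUP and 4281 in CON, at 0.03 (-0.04 to 0.10). Suv39h1 had -0.09 (-0.20 to 0.01). The median of the H3K9 writers was -0.18, and -0.11 as a difference from genes of similar coding length, with 2 of 6 above them.

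All 4 PRC2 genes had ratios below 0. Suz12 had 2490 reads in SUP and 4166 in CON, at -0.26 (-0.33 to -0.19), just short of the fold. Scaling by total counts shifts all HT22 ratios by -0.012, which takes Suz12 past it. Ezh1 had 666 in SUP and 1033 in CON, at -0.15 (-0.29 to -0.0070), and Eed 1226 in SUP and 1847 in CON, at -0.11 (-0.21 to -0.0020). Ezh2 had 1919 in SUP and 2804 in CON, at -0.06 (-0.15 to 0.02).

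Among the 15 demethylases 5 were called higher and 0 lower, against 12.8% and 17.6% of measured genes. They were Kdm6b at 0.41, Kdm5a at 0.37, Kdm2a at 0.35, Kdm5b at 0.29 and Kdm5c at 0.27. Kdm5b had few reads, 221 in SUP and 253 in CON, and a wide interval (0.02 to 0.56). Kdm5c, an X-linked gene mutated in human intellectual disability, had 2270 reads in SUP and 2626 in CON. Kdm2a, which binds unmethylated CpG and removes H3K36 methylation, had 2304 in SUP and 2522 in CON. Kdm6b had 863 reads in SUP and 908 in CON. Kdm1a had 1159 in SUP and 1909 in CON, at -0.24 (-0.34 to -0.13), and Kdm3a 1603 in SUP and 2608 in CON, at -0.22 (-0.31 to -0.13). Kdm4a, the gene with the most reads among those acting on H3K9 and H3K36, had 1876 in SUP and 2359 in CON, at 0.15 (0.07 to 0.24). The other 7 lay between -0.05 and 0.26, with Kdm2b at 0.26 (0.09 to 0.43) just outside the threshold.

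**Figure D2:**
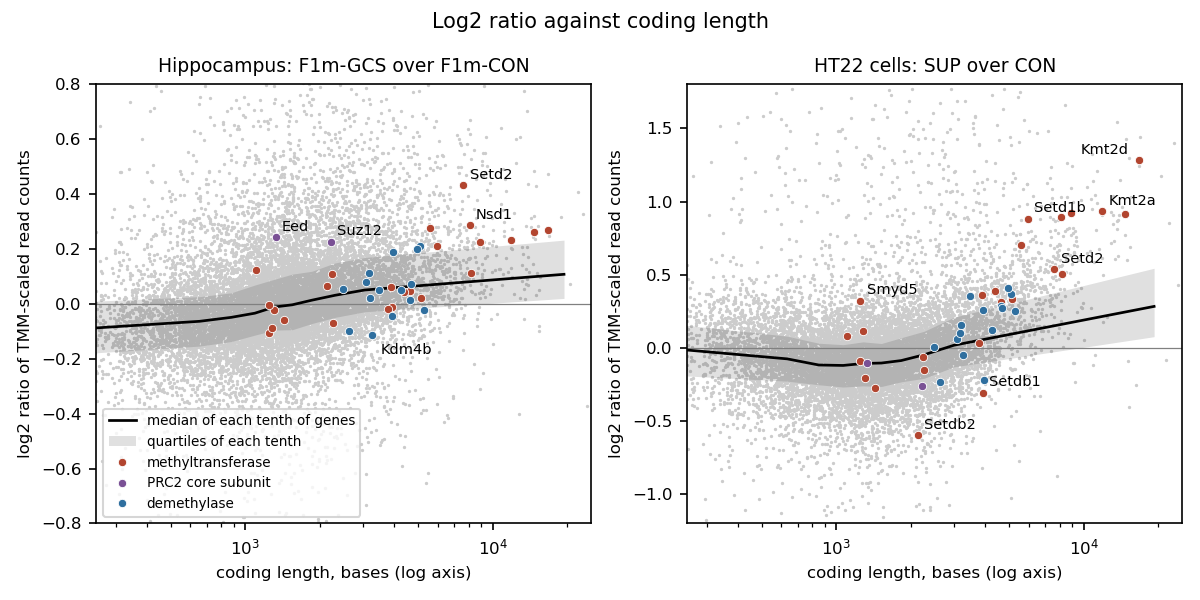
Log2 ratio (y axis, scaled read counts) against coding length in bases (x axis, log scale), with hippocampus F1m-GCS over F1m-CON on the left and HT22 SUP over CON on the right. Grey points are measured genes, the line and band are the median and quartiles of 10 groups by length, coloured points are the 41 genes, and genes beyond the y axis are not drawn; the median of the longest group is 0.11 in hippocampus and 0.28 in HT22 cells.

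The trend with coding length was steeper at its long end in HT22 cells, where the longest of 10 length groups had a median of 0.28 and the 23 genes in it 0.37. Across the 41 genes the rank correlation with length was 0.79, against 0.21 across 10813 other genes. After comparison with the 100 genes nearest in length, 7 of the 41 stood at least 1.2-fold higher, against 12.9% of measured genes, and 3 lower, against 12.3%. At 1.5-fold these were 0 higher, against 3.95%, and 1 lower, Setdb2, against 2.21%. The median difference was 0.02, with 23 of 41 above their neighbours. The higher ones were Kmt2d, Setd1b, Nsd1, Ash1l, Kmt2e, Smyd5 and Kdm2a, and the lower ones Setdb1, Setdb2 and Kdm3a. Kmt2d exceeded its neighbours by 0.56 (0.49 to 0.63), and 8 of the 100 had a higher ratio. Few genes are as long as Kmt2d, with a coding length of 16767 bases, and its 100 neighbours spanned 8529 to 24099. Against the 20 nearest, of 13656 to 16971 bases, Kmt2d exceeded the median by 0.38, and 4 of the 20 had a higher ratio. Kmt2a exceeded its 100 neighbours by 0.23 (0.15 to 0.31) and its 20 nearest by 0.08. Kmt2c exceeded its 100 neighbours by 0.19 (0.06 to 0.32) and its 20 nearest by 0.05. Setd2 exceeded its 100 neighbours by 0.01 (-0.07 to 0.10). With neighbours nearest in transcript length in place of coding length, chosen after the data were seen, 13 genes were higher at 1.2-fold, against 12.9% of measured genes, and 1 lower, Setdb2, against 12.6%. In hippocampus the transcript-length neighbours gave 2 higher, Setd2 and Eed, against 7.11%, and 0 lower, against 3.62%.

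The genes that departed from their length neighbours were not all long. Smyd5, with 1121 reads in SUP and 1253 in CON and a coding length of 1251 bases, exceeded its neighbours by 0.44 (0.32 to 0.55), and 2 of the 100 had a higher ratio. Kdm2a exceeded them by 0.28 (0.20 to 0.36), Setd1b by 0.46 (0.32 to 0.62) and Kmt2e by 0.37 (0.26 to 0.48). On the low side Setdb1 differed by -0.48 (-0.52 to -0.43), with 97 of its 100 neighbours above it, Setdb2 by -0.62 (-0.95 to -0.31) and Kdm3a by -0.39 (-0.48 to -0.30). With GC content matched as well, 9 genes were higher, against 12.8% of measured genes, and 4 lower, against 11%. Kmt2d then exceeded its neighbours by 0.90 (0.83 to 0.97), Kmt2a by 0.48 (0.39 to 0.56) and Kmt2c by 0.38 (0.25 to 0.51), and Setdb1 differed by -0.42 (-0.47 to -0.37). These neighbours came from the 500 nearest in length, a looser length match for the longest genes. For Kmt2d their median ratio was 0.39, against 0.90 for its 20 nearest in length, and for Kmt2a 0.46 against 0.86. The larger excesses of these long genes are therefore not matched for length as closely as those over the 20 nearest.

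Genes of brain cells differed between the HT22 libraries. Of 10 measured neuron markers 8 were called higher in SUP and 1 lower, with a median log2 ratio of 1.34. The 2 measured oligodendrocyte markers were also called higher, among them Mbp at 0.97. The other cell types had at most 3 measured markers each, too few to say whether they shared this direction. In each of the microglia, choroid plexus and endothelium lists, 1 gene was called 2-fold higher in HT22 CON than in F1m-CON. A marker that the cell line itself expresses cannot report on brain cells. Of 3 measured astrocyte markers 1 was called higher, with a median of -0.07, and the 1 microglia marker had -0.04. The 1 choroid plexus marker and the 1 endothelial marker measured were called lower, at -0.52 and -0.48. Over 644 genes with a mean of at least 50 CPM in hippocampus and more than 100 times their HT22 mean, the HT22 level was 0.801% of the hippocampus level in SUP and 0.336% in CON. Subtracting that share removed at most 9.28% of the reads of any of the 41 genes in SUP and 7.24% in CON, both for Nsd1. All 41 ratios after subtraction lay within their counting intervals. The share was held low by the choice of genes, each with more than 100 times its HT22 mean in hippocampus. The small removals follow largely from that choice, and the effect of a larger share was not tested. The share of uniquely mapped reads that fell in genes also differed, at 63.1% in SUP and 72.9% in CON, and its part in the ratios was not tested.

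The choline comparisons in tissue and in the cell line used separate libraries. Ratios were higher in both with both intervals above 0 for 11 genes, Kmt2a, Kmt2b, Kmt2c, Kmt2d, Setd1b, Setd2, Nsd1, Ash1l, Kmt2e, Kdm5a and Kdm6b. These were 26.8% of the 41, against 8.38% of 10234 genes measured in both. Kdm1a was lower in both, 2.44% of the 41, against 8.01%. Eed, Suz12 and Kdm3a were higher in F1m-GCS and lower in HT22 SUP, 7.32% against 5.35%, and 0 genes had the opposite pattern, against 3.52%. Across the 41 genes the Pearson correlation of the ratios was 0.58, against 0.17 across 10234 genes measured in both. For the differences from length neighbours it was 0.19. Coding length runs with the ratio in both pairs. Counting intervals also narrow as reads increase, and the 41 genes were not matched with the others in read depth.

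Between HT22 cells and hippocampus, the PRC2 core and 3 of the H3K9 writers were far higher in the cell line, and Nsd1, Kdm5b and Ezh1 were lower. Called at 2-fold in HT22 CON over F1m-CON, 7 genes were higher, 17.1% of the 41, against 27.6% of 13924 measured genes. Lower were 5, or 12.2%, against 35.9%. Together 12 genes, 29.3%, passed 2-fold in either direction, against 63.5% of measured genes, and the other 29 lay between -0.86 and 0.94. With total counts 11 were higher. Total counts shift all ratios of this pair by 0.14, which takes Ezh1 (-1.08) inside 2-fold and Setd7 (-1.14) to its edge. In HT22 SUP over F1m-GCS, 10 were higher and 4 lower, against 27% and 36.7%, and these 14 were 34.1% of the 41, against 63.7% of measured genes. The cell line differs from tissue in cell type, culture, growth and library depth, which cannot be told apart here.

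**Figure D3:**
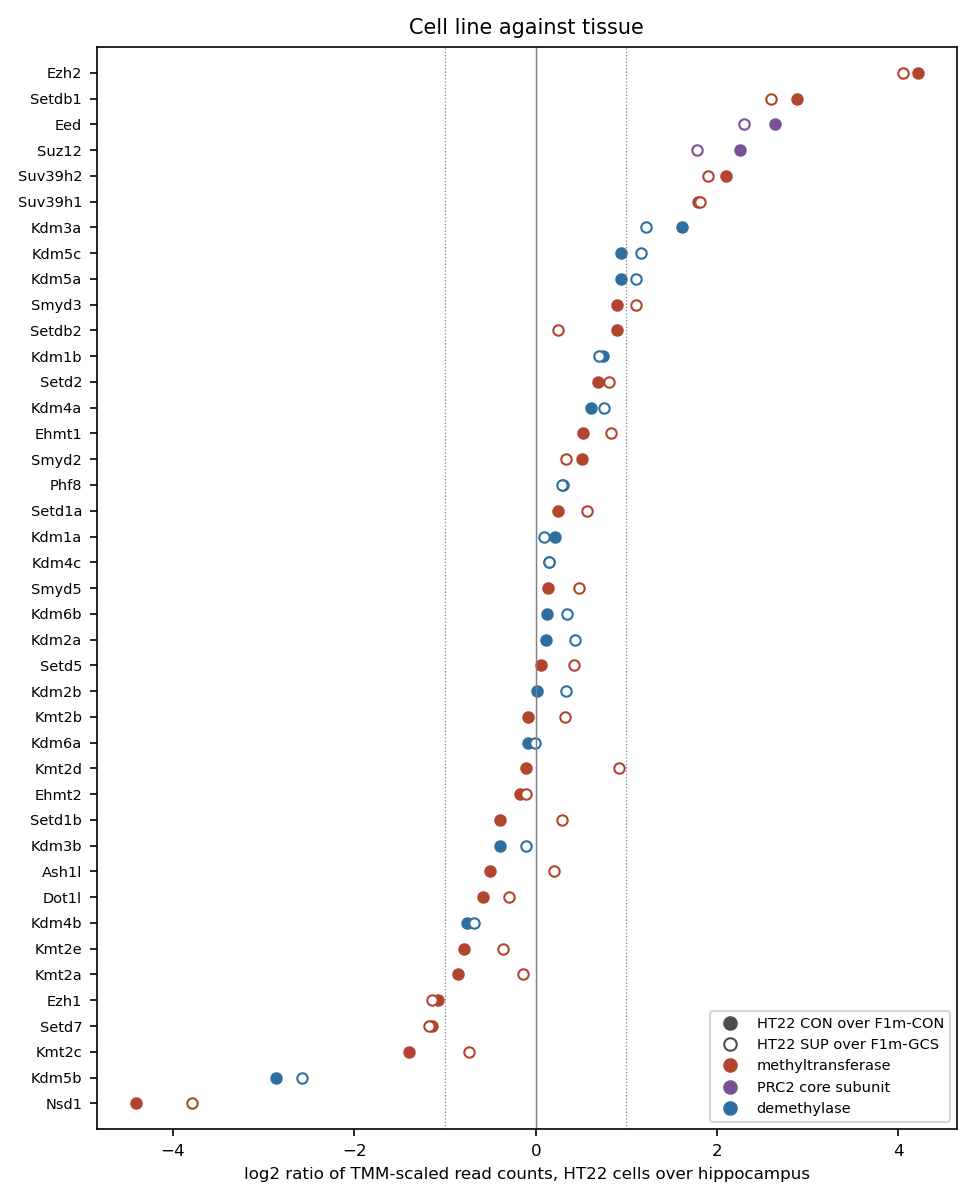
Log2 ratio of TMM-scaled read counts, HT22 cells over hippocampus (x axis), for the 41 genes (y axis, ordered by HT22 CON over F1m-CON). Filled points are HT22 CON over F1m-CON, open points HT22 SUP over F1m-GCS, and dotted lines mark 2-fold; Ezh2 lies at 4.22 and Nsd1 at -4.41 in the first pair.

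Ezh2 had 2804 reads in HT22 CON and 231 in F1m-CON, a log2 ratio of 4.22 (4.04 to 4.43), or 18.6-fold. Ezh1 had 1033 in HT22 CON and 3372 in F1m-CON, at -1.08 (-1.18 to -0.98). The balance between these paralogues turned over with the sample type. Per kilobase of the longest transcript in GENCODE M21, the Ezh2 level was 4.35 times that of Ezh1 in HT22 SUP and 4.10 times in HT22 CON, against 0.117 times in F1m-GCS and 0.103 times in F1m-CON. Eed had 1847 reads in HT22 CON and 456 in F1m-CON, at 2.64 (2.50 to 2.80), and Suz12 4166 in HT22 CON and 1345 in F1m-CON, at 2.26 (2.17 to 2.35). The 2 genes whose promoters held the E2F motif, Ezh2 and Suz12, were both among the 7 higher genes, and the promoters of the other 5, Eed, Setdb1, Suv39h1, Suv39h2 and Kdm3a, held none.

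Setdb1 had 9239 reads in HT22 CON and 1940 in F1m-CON, at 2.88 (2.81 to 2.95). Its level per transcript kilobase was the highest of the 41 genes in HT22 cells. It was 86.9 reads per kilobase per 1e6 reads in genes in SUP and 108 in CON, against 13.1 in F1m-GCS and 13.4 in F1m-CON. Per kilobase of coding sequence Setdb1 ranked first in HT22 CON, while in HT22 SUP Setd7 stood above it, at 119 against 103. Suv39h1 had 1828 reads in HT22 CON and 816 in F1m-CON, at 1.79 (1.67 to 1.91), and Suv39h2 564 in HT22 CON and 201 in F1m-CON, at 2.10 (1.88 to 2.36). Their euchromatic counterparts did not reach the fold, Ehmt1 at 0.53 and Ehmt2 at -0.17. Kdm3a was the demethylase called higher, with 2608 reads in HT22 CON and 1318 in F1m-CON, at 1.61 (1.52 to 1.71).

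Nsd1 had 156 reads in HT22 CON and 5176 in F1m-CON, at -4.41 (-4.66 to -4.19), or 21.3-fold lower. Its level was 1.24 per transcript kilobase in HT22 SUP and 0.667 in HT22 CON, the lowest of the 41 genes, against 15.7 in F1m-GCS and 13.0 in F1m-CON. Setd2, with the same lysine as its target, had 0.69 (0.61 to 0.77) and did not reach the fold. Kdm5b had 253 reads in HT22 CON and 2858 in F1m-CON, at -2.86 (-3.06 to -2.68), while its paralogues Kdm5a and Kdm5c had 0.94 and 0.94. Kdm5b relative to Kdm5a per transcript kilobase was 0.149 in HT22 SUP and 0.157 in HT22 CON, against 1.92 in F1m-GCS and 2.20 in F1m-CON. Kmt2c had -1.40 (-1.51 to -1.29) and Setd7 -1.14 (-1.21 to -1.07). Kmt2c was -0.73 in HT22 SUP over F1m-GCS and did not pass the fold there.

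**Figure D4:**
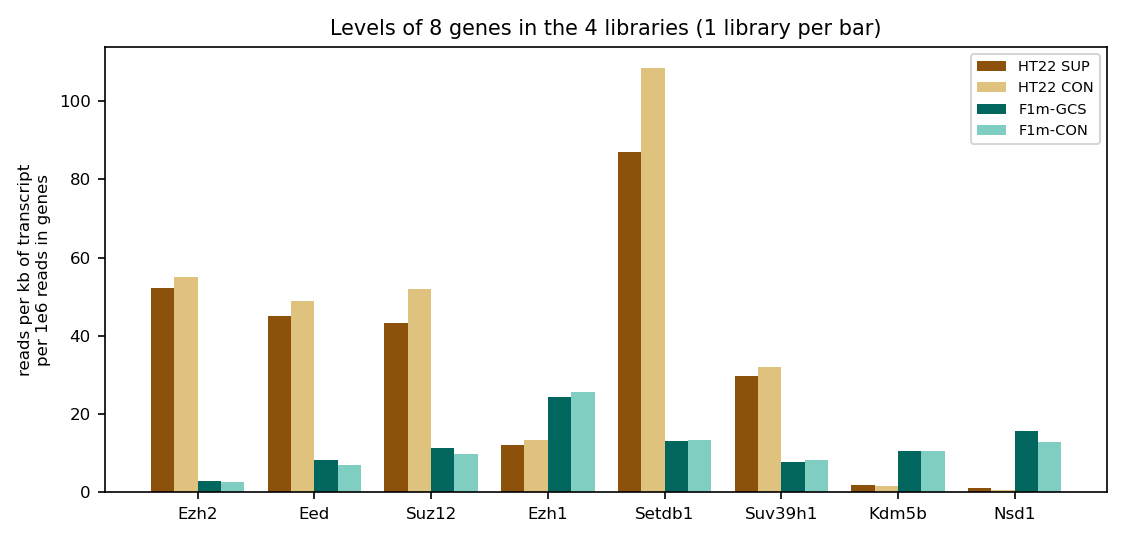
Levels of 8 genes in reads per kilobase of longest transcript per 1e6 reads in genes (y axis), with 1 bar per library for HT22 SUP, HT22 CON, F1m-GCS and F1m-CON. Ezh2, Eed, Suz12, Setdb1 and Suv39h1 are higher in both HT22 libraries and Ezh1, Kdm5b and Nsd1 in both hippocampus libraries.

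Within the hippocampus the highest levels per transcript kilobase belonged to Ehmt2, Smyd2 and Setd7, in both libraries. Ehmt2 stood at 58.2 in F1m-GCS and 59.4 in F1m-CON, Smyd2 at 41.4 in F1m-GCS and 42.4 in F1m-CON, and Setd7 at 36.6 in F1m-GCS and 33.9 in F1m-CON. In HT22 cells Ehmt2 was close to its hippocampus level, at 58.9 in SUP and 58.1 in CON. Per kilobase of coding sequence Setd7 ranked first in hippocampus, since its longest transcript of 7411 bases exceeds its coding length of 1101 bases. The lowest in hippocampus was Suv39h2, at 1.42 in F1m-GCS and 1.49 in F1m-CON.

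Other enzymes and partner subunits, listed with earlier results of these data known, were set beside the 41 genes. Over 7 lists with 80 genes measured in hippocampus, 7 genes or 8.75% were higher in F1m-GCS, against 8.51% of measured genes, and 0 lower, against 4.47%. Of 28 measured further methyltransferases and demethylases 4 were higher in F1m-GCS and 0 lower, Jmjd1c at 0.43, Uty at 0.40, Jhdm1d at 0.40 and Prdm10 at 0.40, with a median over the list of 0.04. Jmjd1c is a relative of Kdm3a. Just 1 gene was higher in each of 3 partner lists, the PRC2 accessory subunit Mtf2 at 0.27, the H3K9 methyl reader Mphosph8 at 0.35 and the Dot1l partner Mllt3 at 0.27. None of the 13 Kmt2 complex partners, 12 PRC1 subunits or 8 Kdm1a partners was called in either direction. The list medians lay between -0.04 and 0.04, against -0.0042 over all measured genes.

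In HT22 SUP, 10 of 74 list genes or 13.5% were higher, against 12.8% of measured genes, and 7 or 9.46% lower, against 17.6%. Of these, 3 of 20 measured further enzymes were higher and 2 lower. Prdm10 had 0.79, Prdm2 0.58 and Phf2, an H3K9 demethylase, 0.28, while Prdm4 had -0.34 and Kdm8 -0.77. Of 13 Kmt2 complex partners 2 were higher, the nucleosome remodelling subunit Bptf at 0.93 and Hcfc1 at 0.39, and 1 lower, Wdr82 at -0.29. The median of this list was -0.05, and -0.03 as a difference from genes of similar coding length, against 0.90 and 0.21 for the 6 H3K4 writers. Among PRC1 subunits Phc3 was higher at 0.30 and Rnf2 at -0.30, Bmi1 at -0.29 and Cbx7 at -0.45 were lower, 1 and 3 of 12. Jarid2, a PRC2 accessory gene, was higher at 0.39, as were the heterochromatin protein gene Cbx5 at 0.40, Mphosph8 at 0.29 and Aff1 at 0.37. Rcor3, a Kdm1a partner, was lower at -0.44.

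Between cell line and tissue, in HT22 CON over F1m-CON, 23 of 82 list genes or 28% were higher, against 27.6% of measured genes, and 17 or 20.7% lower, against 35.9%. Of 7 further PRC2 genes 4 were higher, Rbbp7 at 3.89, Phf19 at 2.75, Rbbp4 at 1.91 and Mtf2 at 1.34. Just 1 was lower, Jarid2 at -1.22. Of 8 H3K9 partners 4 were higher and 0 lower, led by Uhrf1, a gene of DNA methylation maintenance, at 7.49 with 3880 reads in HT22 CON and 31 in F1m-CON. PRC1 was divided, with Cbx2 at 3.11 and Pcgf2 at 1.00 higher, and Cbx7 lower at -3.03. Of the further enzymes 6 of 28 were higher and 12 lower. Prdm8 had 2 reads in HT22 CON and 2575 in F1m-CON. Among Kmt2 partners Dpy30, Wdr5 and Psip1 were higher, at 1.64, 1.26 and 1.19, and Wdr82 lower at -1.10.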

How the data were processed

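Per the labels' protocols, poly(A)-selected RNA was made into TruSeq v2 libraries, a kit that does not mark strand, and sequenced paired-end. Reads were trimmed with Trim Galore, aligned with TopHat2 to mm10 and counted with HTSeq, per the series' design text. CASAVA 1.8 is named in the submitters' processing notes. Per the file headers, each deposited table pairs whole-number read counts with RPKM for every gene and library. The deposited RPKM was not used. The authors also deposited log2 fold changes with a p-value and its false discovery rate from edgeR on single libraries, of which the calls at 0.05 and, in HT22, a few log2 values were used. Of protein-coding lengths 99.8% were multiples of 3, so they are called coding lengths.

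Counts were scaled by TMM (edgeR 4.0.16, R 4.3.3). Log2 ratios used a prior count of 2, and intervals are exact conditional Clopper-Pearson intervals at 95%, for counting error only (scipy 1.17.1, Python 3.11.15). Reads are not independent molecules. Intervals reached a median of 0.09 to either side in hippocampus and 0.11 in HT22 over the 41 genes. With 1 library per group, calls rest on fold size and no test across genes was made. Transcript length and GC content were read off each gene's longest coding transcript in GENCODE M21, found for 41 of the 41 genes and 21096 genes in all. The scripts were tested on simulated data. Alternatives were total counts, scaling by DESeq2 1.42.0, a prior count of 0.25 or 10, a floor of 10 or 200 reads, 50 or 300 neighbours, GC matching among the 500 nearest in length, a whole-interval rule, subtraction of a hippocampus share, the second pair of cell line and tissue and, chosen after the data were seen, transcript-length neighbours. Named genes were up to 8 called genes per direction and comparison, the gene with the most reads of each target lysine, and called genes of the lists, up to 6 per list. Genes named beyond this rule, such as Prdm8, Smyd2 and Eed, were chosen after their values were seen. The genes and lists were chosen with earlier results of these data known. A few called list genes are not reported here.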

Additional observations from a re-analysis of the deposited data

Results flagged for a closer look

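In all, 3 genes had ratios of opposite sign in the choline comparisons of tissue and cell line, with counting intervals that excluded 0 in both. Eed had a log2 ratio of -0.11 in HT22 SUP over CON and 0.24 in F1m-GCS over F1m-CON. Suz12, the other PRC2 core subunit, had -0.26 in HT22 and 0.23 in hippocampus. Kdm3a, an H3K9 demethylase, had -0.22 in HT22 and 0.19 in hippocampus. The HT22 interval of Eed ended at -0.0020, next to 0. Differences from length neighbours in HT22 were -0.05 (-0.16 to 0.05) for Eed and -0.19 (-0.26 to -0.12) for Suz12. For Kdm3a this difference was -0.39 (-0.48 to -0.30). With length and GC matched in hippocampus, Eed differed by 0.26 (0.08 to 0.44). Suz12 then differed by 0.05 (-0.06 to 0.15) and Kdm3a by 0.05 (-0.06 to 0.16). The difference between tissue and cell line was not tested, since each comparison rests on 1 library per group.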

How the results depend on the processing

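In hippocampus the 5 genes called higher were 3 with total counts and 1 with the whole interval beyond 1.2-fold. The 1 gene higher than its length neighbours was 0 with GC matching and 2 with transcript-length neighbours. In HT22 the 1 gene lower by 1.5-fold was 0 with a prior count of 10 and 0 with the whole-interval rule, and the 3 lower by 1.2-fold were 1 under that rule. Of the 19 higher by 1.2-fold, Setd1a, Ehmt1, Dot1l, Smyd5, Kdm5b and Kdm5c did not pass it, with lower bounds from 0.02 for Kdm5b to 0.25 for Ehmt1. Total counts shift all HT22 ratios by -0.012, which takes Suz12 (-0.258) past the 1.2-fold threshold of 0.263 and Kdm5c (0.274) inside it. With transcript-length neighbours the HT22 median difference was 0.14 (0.02 with coding length), and 13 genes stood higher and 1 lower. Between cell line and tissue the median of 0.14 was 0.28 with total counts, which shift all genes by 0.14, and 0.34 in HT22 SUP over F1m-GCS. The 7 higher genes were 11 with total counts, and of the lower genes Ezh1 no longer passed 2-fold and Setd7 lay at its edge. Directions turned for Kmt2d, at 0.034 with total counts, and at 0.92 in HT22 SUP over F1m-GCS (-0.11 in HT22 CON over F1m-CON), and in that second pair for Setd1b at 0.29 (-0.39) and Ash1l at 0.20 (-0.50). The cause was not tested. Another 119 summary values and 758 gene values kept their direction and size class, and 58 gene values moved, all in the comparison of cell line with tissue. No paired analysis was possible because each group holds 1 library. Depth limits genes with few reads, such as Ezh2 in hippocampus, and replicate variation is unknown.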
